A study of Mus musculus with 78 samples.

Results

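Wild-type mouse liver was compared between 5 and 11 weeks of age, the interval between the weeks after weaning and young adulthood. The arrays were chosen by their titles, as the 4 Npc1+/+ mice aged 5 weeks and the 4 aged 11 weeks, which made 8 of the 78 arrays of the series. The series as a whole was a study of liver in mice lacking Npc1, the lysosomal cholesterol transporter whose loss causes Niemann-Pick disease type C. Every mouse was female and on a BALB/c background, each array held the liver RNA of 1 mouse, and levels were read on an Affymetrix mouse array as log2 values. The Npc1+/+ mice carried no mutant allele. They came from crosses of heterozygotes of the BALB/cNctr-Npc1m1N/J line, so Npc1-/- mice of the same crosses served as a second genotype at the same ages. The crosses gave further Npc1+/+ groups of 4 mice at 1, 3, 7 and 9 weeks. Mice were weaned at 3 weeks, ate normal chow freely and received no treatment. A separate group of 5 untreated BALB/cJ females aged 12 weeks, bought from a supplier, had the same Npc1+/+ genotype. Litters and collection times are not given in the sources used here, so p-values measure the spread between these mice only, and males were not studied.

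The liver goes on maturing after weaning. Hepatocytes leave the cell cycle, fetal and imprinted growth genes are turned down, stellate cells and fibroblasts lay down less collagen as the organ stops growing, and puberty sets the sex-specific pattern of hepatocyte enzymes through the rhythm of growth hormone release. In female mice that release is nearly continuous, and it raises one group of sulfotransferases and cytochrome P450s and holds down another.

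The tissue label was borne out by its markers. Alb, Ttr, Apoa1, Cps1 and Cyp2e1, which define hepatocytes, lay between 12.9 and 13.8 in all 8 livers, near the top of the deposited range, and none passed the test between ages (adjusted p from 0.921 to 0.984, limma). Npc1 itself was 0.27 ± 0.16 higher at 11 weeks (SE; adjusted p = 0.588, limma), which did not pass. Of the marker lists for cells that a liver sample can hold, 25 of 33 T and NK cell genes, 13 of 16 neutrophil genes and 12 of 19 B and plasma cell genes were below 5.54, the median of all values, in all 8 livers. A value below that level was treated as close to background, since the table holds no detection calls. Array medians of the 16 Npc1+/+ livers from 5 to 11 weeks spanned 5.48 to 5.63. A few of these livers stood apart. Pancreatic acinar genes were high in mouse 1 at 5 weeks, mouse 4 at 9 weeks and mouse 4 at 11 weeks, with list means of 6.49, 6.38 and 6.43 against 5.04 to 5.55 in the other mice. The clock genes Arntl and Dbp lay far from the rest of the group in mouse 1 at 5 weeks and mouse 4 at 11 weeks.

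The 2 ages differed in few genes. Of 12638 genes tested, 24 passed an adjusted p of 0.05 (0.19%), 13 of them higher at 11 weeks (0.103%) and 11 lower (0.087%). Adjusted p-values came from limma with Benjamini-Hochberg correction over all genes tested, from a two-sided test in a fit of the 48 arrays of the age series. In that fit 1239 genes (9.8%) had an unadjusted p under 0.05. The 24 genes changed between 1.28-fold and 6.5-fold, and 8 of them changed at least 2-fold. The median change of all genes tested was 0.03 on the log2 scale, and their median absolute change was 0.09. The 4 values at 11 weeks all lay on one side of the 4 values at 5 weeks for 541 genes (4.28%), of which 393 were higher (3.11%) and 148 lower (1.17%) at 11 weeks, and for 23 of the 24. Without mouse 1 at 5 weeks and mouse 4 at 11 weeks 21 genes passed, of which 17 were among the 24, and leaving out single mice gave 14 to 40 genes, with 14 without mouse 2 at 11 weeks and 40 without mouse 2 at 5 weeks.

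**Figure D1:**
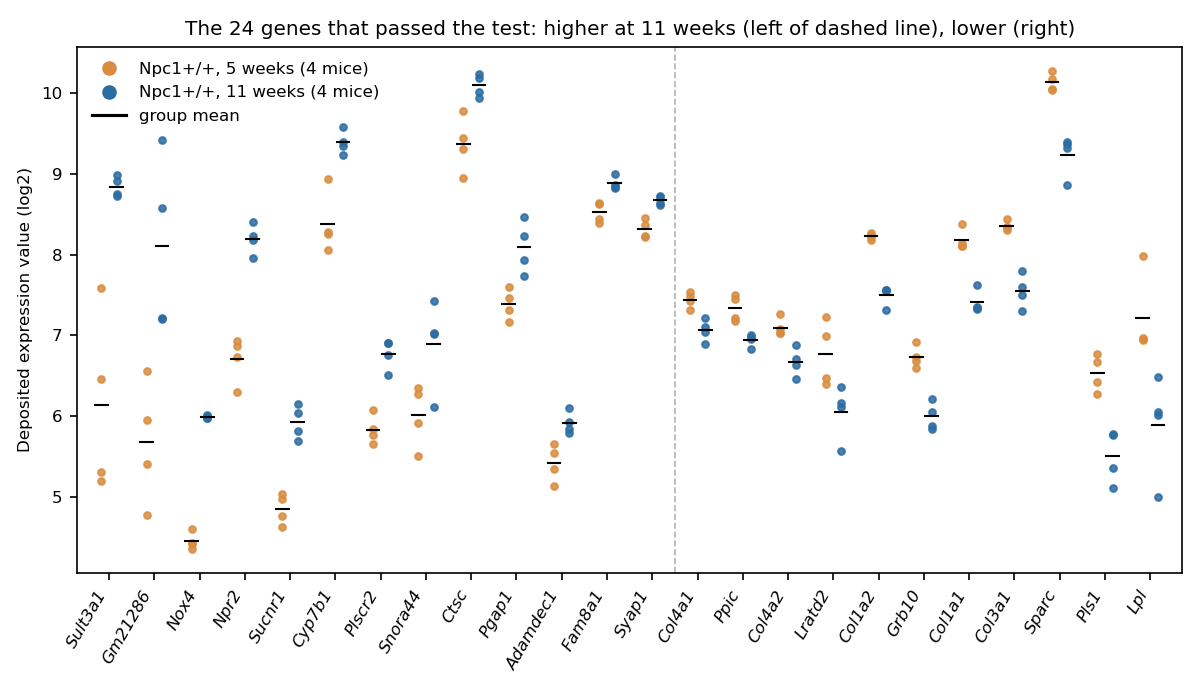
Deposited log2 expression values (vertical axis) of each mouse for the 24 genes that passed, at 5 weeks (orange) and 11 weeks (blue), 4 mice per age, with black bars for group means. Genes left of the dashed line were higher at 11 weeks and genes to its right lower, and Snora44 is the gene whose groups overlap.

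Genes of the extracellular matrix made up the largest group that fell. Of 25 tested genes of collagens and stellate cells, the matrix-producing cells beside the liver sinusoids, 6 fell (Sparc, Col3a1, Col1a1, Col1a2, Col4a2 and Col4a1), against 0.087% of all genes tested, and 0 rose. In the fit of the 8 arrays alone and in that of the 24 Npc1+/+ arrays 4 fell. An unadjusted p under 0.05 was reached by 12 of the 25 (48%), the 6 among them, against 9.8% of all genes tested. The list was written with earlier results of these data known, so these shares are a description. The list had a median change of -0.19, against 0.03 for all genes tested. In whole liver, fewer matrix-producing cells and less RNA per cell cannot be told apart.

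Sparc encodes a secreted glycoprotein that binds collagen and is needed for normal fibril assembly. Its 4 values at 5 weeks were 10.04, 10.03, 10.27 and 10.17, and at 11 weeks they were 9.39, 9.32, 8.86 and 9.36. Every mouse was lower at 11 weeks than every mouse at 5 weeks, and mouse 3 was the lowest of all 8. Sparc fell by 0.90 on the log2 scale (SE 0.10; adjusted p = 1.21e-07), or 1.86-fold.

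Col3a1 encodes the chain of type III collagen, the reticular fibre of the liver. Its values were 8.44, 8.34, 8.34 and 8.31 at 5 weeks and 7.79, 7.50, 7.30 and 7.60 at 11 weeks. The SD was 0.06 at 5 weeks and 0.20 at 11 weeks, and the groups did not overlap. Col3a1 fell 1.75-fold (log2 change -0.81 ± 0.12, SE; adjusted p = 3.67e-05).

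Col1a1 and Col1a2 encode the 2 chains of type I collagen, the main fibrillar collagen. Col1a1 read 8.10, 8.10, 8.38 and 8.14 at 5 weeks and 7.63, 7.34, 7.33 and 7.35 at 11 weeks. Col1a2 read 8.21, 8.26, 8.24 and 8.18 at 5 weeks and 7.56, 7.55, 7.31 and 7.57 at 11 weeks. In both genes the lowest 5-week mouse was above the highest 11-week mouse. The changes were -0.77 ± 0.14 for Col1a1 (adjusted p = 0.00123) and -0.73 ± 0.10 for Col1a2 (adjusted p = 9.14e-06).

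Col4a1 and Col4a2 encode the chains of type IV collagen, the network collagen of basement membranes. Their RefSeq starts (build GRCm38.p6) lie 21 bases apart on opposite strands. Col4a1 ran from 7.31 to 7.54 at 5 weeks and from 6.89 to 7.21 at 11 weeks, a change of -0.38 ± 0.09 (adjusted p = 0.0382). Col4a2 ran from 7.02 to 7.26 and from 6.46 to 6.87, a change of -0.43 ± 0.09 (adjusted p = 0.0309). Neither pair of groups overlapped, but both changes were small. Col4a1 lost its call under 15 of the 21 alternative settings and Col4a2 under 8. Ppic, which encodes the secretory-pathway prolyl isomerase cyclophilin C, was no member of the list. It changed by -0.39 ± 0.09 (adjusted p = 0.0382) and lost its call under 13 of 21 settings.

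Other genes of the list gave no call. The other 5 collagens of the list were below 0 without passing, with Col6a3 at -0.31 ± 0.12 (adjusted p = 0.316), Col6a1 at -0.30 ± 0.10 (0.256), Col5a2 at -0.25 ± 0.10 (0.403), Col5a1 at -0.21 ± 0.08 (0.316) and Col14a1 at -0.05 ± 0.08 (0.884). Above 0 stood 4 members, Reln at 0.22 ± 0.09, Dcn, Lrat and Lum. Lrat, the retinol-esterifying enzyme of quiescent stellate cells, stood at 0.08 ± 0.19, Des (desmin) at -0.07 ± 0.25 and the receptor gene Pdgfrb at -0.02 ± 0.10, and none of the 3 passed. The small proteoglycan genes Dcn and Lum stood at 0.14 ± 0.08 and 0.04 ± 0.17. Without mouse 1 at 5 weeks and mouse 4 at 11 weeks, 5 of the 25 fell, Col4a1 being the one lost, and the list median was -0.22. The remaining members were Tagln at -0.40 ± 0.15, Acta2 at -0.23 ± 0.34, Loxl1 at -0.19 ± 0.12, Mfap2 at -0.18 ± 0.12, Mfap4 at -0.14 ± 0.11, Postn at -0.07 ± 0.11, Vim at -0.06 ± 0.11 and Loxl3 at -0.02 ± 0.09. The list genes other than the called ones were named after their values were seen.

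**Figure D2:**
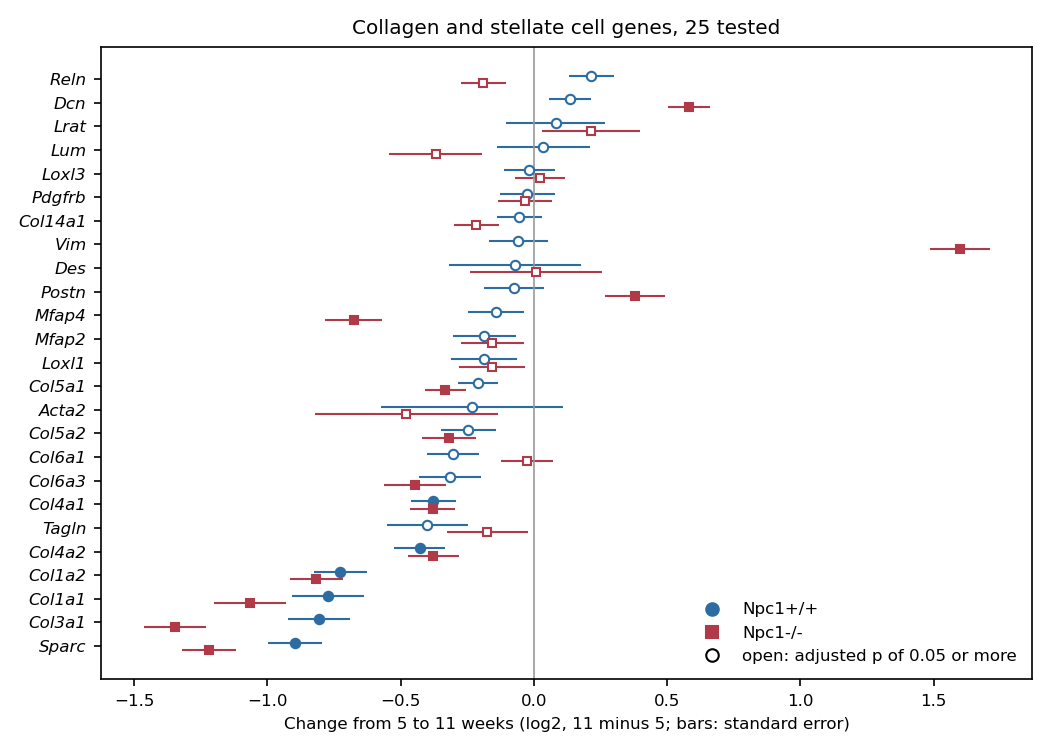
Change from 5 to 11 weeks (log2, 11 minus 5 weeks; horizontal axis) of the 25 tested collagen and stellate cell genes in Npc1+/+ (circles) and Npc1-/- liver (squares), 4 mice per genotype and age, with standard errors. Filled symbols passed an adjusted p of 0.05, and the 6 filled circles are Sparc, Col3a1, Col1a1, Col1a2, Col4a2 and Col4a1.

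Because these genes fell together, the sequence upstream of their starts is shown for a fibrillar collagen of each type and for Sparc. RefSeq promoter windows were found for 15 of the 24 genes and for 5 of the 6 matrix genes that fell, Col1a1 being without one. The 250 bases before the start (GRCm38.p6) are given 5′ to 3′ on the gene's strand in lower case, with capitals marking CCAAT on either strand (CCAAT or ATTGG) and TATAAA on the gene's strand. They lie at chr6:4505368-4505617 (plus strand) for Col1a2, chr1:45311288-45311537 (plus strand) for Col3a1 and chr11:55420081-55420330 (minus strand) for Sparc.
Col1a2: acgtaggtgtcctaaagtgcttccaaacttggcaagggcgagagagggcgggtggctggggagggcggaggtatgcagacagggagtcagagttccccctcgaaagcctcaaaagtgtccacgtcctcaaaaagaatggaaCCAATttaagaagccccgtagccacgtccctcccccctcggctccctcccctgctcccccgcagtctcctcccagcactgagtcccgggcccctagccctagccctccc
Col3a1: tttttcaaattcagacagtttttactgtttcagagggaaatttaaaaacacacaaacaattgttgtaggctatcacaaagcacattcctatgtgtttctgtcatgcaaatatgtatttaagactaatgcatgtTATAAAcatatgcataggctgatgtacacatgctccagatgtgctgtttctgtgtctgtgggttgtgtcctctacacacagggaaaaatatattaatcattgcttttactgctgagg
Sparc: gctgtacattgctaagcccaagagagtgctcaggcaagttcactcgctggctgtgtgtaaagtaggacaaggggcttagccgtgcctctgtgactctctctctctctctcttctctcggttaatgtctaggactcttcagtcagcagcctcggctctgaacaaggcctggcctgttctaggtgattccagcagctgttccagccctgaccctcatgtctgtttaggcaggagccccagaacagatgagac
The Col1a2 window held 1 CCAAT, whose first base lies 109 bases before the start, and the Col3a1 window held 1 TATAAA, 117 bases before it. The Sparc window held neither run of letters. Among all 32851 RefSeq windows of this length 33.8% held a CCAAT on either strand and 7.59% a TATAAA. Shares of genes count a gene with a match in any of its windows, so they are not on the same footing as these shares of windows. Of the 15 genes of the 24 with a window, 4 held a CCAAT (26.7%) and 1 a TATAAA (6.67%). Of the 15 genes of the matrix list with a window, 6 held a CCAAT (40%) and 3 a TATAAA (20%). These matches describe the letters only.

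Lpl, Pls1 and Grb10 also fell, and none of them belongs to the matrix. Lpl encodes lipoprotein lipase, which frees fatty acids from circulating triglyceride and is made in the liver of newborn mice far more than in that of adults. It read 7.98, 6.95, 6.94 and 6.97 at 5 weeks and 6.02, 6.05, 5.01 and 6.49 at 11 weeks. The groups did not overlap, although mouse 1 at 5 weeks lay about 1 log2 unit above its group and mouse 3 at 11 weeks about 1 below. Lpl fell 2.49-fold (log2 change -1.32 ± 0.21; adjusted p = 1.34e-04). The fit of the 8 arrays alone took its adjusted p to 0.316. Of 4 adipocyte genes tested Lpl was the only one that passed, and Plin1, the coat protein of fat droplets in adipocytes, stood at 0.02 ± 0.10.

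Pls1 encodes plastin 1, which bundles actin in the core of microvilli. It read 6.27, 6.77, 6.66 and 6.42 at 5 weeks and 5.76, 5.78, 5.11 and 5.36 at 11 weeks, with no overlap. It fell 2.04-fold (log2 change -1.03 ± 0.13; adjusted p = 4.47e-06). Its mean at 11 weeks, 5.51, was just below the median of all values, so the size of this change may be understated.

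Grb10 encodes an imprinted adaptor that binds the insulin and IGF1 receptors and damps their signals. Its values were 6.73, 6.92, 6.68 and 6.59 at 5 weeks and 5.88, 6.22, 5.84 and 6.05 at 11 weeks. All 4 mice at 11 weeks lay below all 4 at 5 weeks, and Grb10 fell 1.66-fold (log2 change -0.73 ± 0.10; adjusted p = 8.28e-06). It was the 1 gene of 15 tested fetal and imprinted liver genes that passed, and the median of that list was -0.01. Afp, the fetal serum protein gene, was already below the median of all values at both ages, at 5.17 and 5.23. Lratd2 averaged 6.77 at 5 weeks and 6.05 at 11 weeks (adjusted p = 0.0259) and lost its call under 11 of 21 settings, among them the mean over its probe sets.

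Sult3a1 changed more than any other gene that passed. It encodes a sulfotransferase that is known as a female-biased gene of mouse liver. At 5 weeks the 4 mice read 5.19, 7.59, 6.46 and 5.31, and at 11 weeks 8.90, 8.73, 8.75 and 8.98. The 5-week mice were far more spread (SD 1.12) than the 11-week mice (SD 0.12), and the highest 5-week mouse was below every 11-week mouse. Sult3a1 rose 6.5-fold (log2 change 2.70 ± 0.25, SE; adjusted p = 6.22e-10) and kept its call under all 21 settings. Across those settings the highest adjusted p of Sult3a1 was 0.0287 (limma). The SE pools the spread of all groups in the fit of 48 arrays. Among them are the Npc1-/- livers at 5 and 11 weeks, with Sult3a1 means of 2.91 and 2.86. The SE is thus not the spread of the compared mice alone. Sult3a2, a close relative of Sult3a1, entered no test. Its levels were 2.89 to 3.38 at 5 weeks and 3.90 to 5.94 at 11 weeks, most of them below the median of all values. How far the 2 probe sets share signal was not tested.

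Of 17 tested female-biased genes Sult3a1 alone passed, 3 had an unadjusted p under 0.05 (17.6%, against 9.8% of all genes tested), and the list median was 0.02. Cyp2b9 and Cyp2b13, steroid-hydroxylating P450s that are abundant in female liver, averaged 11.73 and 10.75 at 5 weeks and stood at 0.43 ± 0.16 (adjusted p = 0.329) and 0.56 ± 0.29 (adjusted p = 0.536). Cyp3a16, a P450 of young liver, stood at -1.39 ± 0.68 (adjusted p = 0.50), from a mean of 6.63 to one of 5.24, below the median of all values. Cyp2b13 and Cyp3a16 were picked after their values were seen.

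Cyp7b1, the oxysterol 7α-hydroxylase of the alternative route of bile acid synthesis, is known as a male-biased gene. The 5-week mice read 8.05, 8.94, 8.28 and 8.25 and the 11-week mice 9.34, 9.58, 9.40 and 9.23. The highest 5-week mouse, at 8.94, was below the lowest 11-week mouse, at 9.23. Cyp7b1 rose 2.01-fold (log2 change 1.01 ± 0.18; adjusted p = 0.00191) and kept its call under all 21 settings. It was the 1 of 17 tested male-biased genes that passed, and 6 of the 17 had an unadjusted p under 0.05 (35.3%, against 9.8% of all genes tested). The median of that list was 0.17, and 12 of its 17 members were above 0, against 7569 of 12638 over all genes tested. Elovl3, Slco1a1 and Hsd3b5 stood at 1.13 ± 0.40, 1.01 ± 0.32 and 0.94 ± 0.41, with adjusted p of 0.299, 0.252 and 0.432, and Cyp4a12a stood at -1.45 ± 0.42 (0.180) with both means below the median of all values. Those 4 were picked after their values were seen. Cyp7a1, which starts the classical route of bile acid synthesis, stood at -1.03 ± 0.52 (adjusted p = 0.514), and of 24 tested genes in the bile acid list, which does not hold Cyp7b1, 0 passed in limma and 3 had an unadjusted p under 0.05.

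The receptor and oxidase genes Nox4, Npr2 and Sucnr1 rose. Nox4 encodes an NADPH oxidase that releases hydrogen peroxide. It read 4.43, 4.36, 4.61 and 4.42 at 5 weeks and 5.97, 6.00, 5.98 and 6.01 at 11 weeks. The older group was tight, with an SD of 0.02, and the groups did not overlap. A gene was tested when 4 or more arrays exceeded 5.54, and all 11-week mice did. The other Npc1+/+ groups averaged 4.09 to 5.26, and Npc1-/- livers 4.14 at 5 weeks and 5.15 at 11 weeks. So Nox4 may have entered the test through the group in which it was high. Nox4 kept its call under all 20 settings in which it was tested, among them the fit without that filter. The 5-week values lay below the median of all values, so its rise of 2.90-fold (log2 change 1.54 ± 0.13, adjusted p = 2.01e-10, limma) may be understated.

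Npr2 encodes the receptor guanylyl cyclase for C-type natriuretic peptide. It read 6.29, 6.93, 6.86 and 6.73 at 5 weeks and 7.96, 8.40, 8.18 and 8.23 at 11 weeks. Every mouse at 11 weeks was above every mouse at 5 weeks. Npr2 rose 2.80-fold (log2 change 1.48 ± 0.16; adjusted p = 4.22e-08).

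Sucnr1 encodes the cell-surface receptor for the metabolite succinate. It read 4.63, 4.97, 5.04 and 4.76 at 5 weeks, below the median of all values, and 6.04, 6.15, 5.70 and 5.81 at 11 weeks. The groups did not overlap, and the change of 1.07 ± 0.19 (adjusted p = 0.00136, limma) may again be understated. It lost its call in the fit of the 24 Npc1+/+ arrays, with an adjusted p of 0.0805.

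Gm21286 has a name that marks it as a predicted gene, and RefSeq lists it as a long noncoding RNA next to Mup22 in the cluster of major urinary protein genes. Its values spread widely, with 4.78, 6.55, 5.95 and 5.41 at 5 weeks and 7.20, 8.58, 9.42 and 7.21 at 11 weeks. The groups did not overlap, and it rose by 2.43 ± 0.37 (adjusted p = 8.34e-05). In the fit of the 8 arrays alone its adjusted p was 0.172. The genes of that cluster are near copies of one another, and which of them its probes read was not tested. Mup3, a member of the cluster with a probe set of its own, averaged 11.21 and 11.67 (adjusted p = 0.687). Snora44, a small nucleolar RNA gene, read 5.92, 5.51, 6.27 and 6.35 at 5 weeks and 6.12, 7.03, 7.42 and 7.01 at 11 weeks. Mouse 1 at 11 weeks fell among the 5-week mice, and Snora44 lost its call under 11 of 21 settings. Both genes passed the test but stood outside the rule for naming genes, and were named after their values were seen.

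The other genes that rose did so by smaller amounts. Ctsc encodes cathepsin C, a lysosomal protease that activates other proteases. It read 9.44, 9.78, 9.30 and 8.94 at 5 weeks and 10.01, 10.18, 9.94 and 10.24 at 11 weeks, without overlap, and rose by 0.73 ± 0.13 (adjusted p = 0.00114), although the fit of the 8 arrays alone took its adjusted p to 0.244. Ctsc is 1 of the lysosomal proteases, but of 27 tested genes in the lysosomal list, which does not hold it, 0 passed in limma, 4 had an unadjusted p under 0.05, and the median was 0.08. Pgap1, an enzyme that trims the lipid anchor of GPI-linked proteins, read 7.16 to 7.60 and then 7.73 to 8.46, and rose by 0.70 ± 0.13 (adjusted p = 0.00191). It lost its call in the fit of the 8 arrays alone (adjusted p = 0.265) and without mouse 2 at 11 weeks. Plscr2, of the phospholipid scramblase family, rose by 0.93 ± 0.20 (adjusted p = 0.0186) but lost its call under 8 of 21 settings. Adamdec1, which encodes a secreted metalloprotease, rose by 0.50 ± 0.11 (adjusted p = 0.0375) from a mean below the median of all values and lost its call under 10 of the 20 settings in which it was tested. Fam8a1, a partner of the ubiquitin ligase that clears misfolded proteins from the endoplasmic reticulum, and Syap1 rose 1.28-fold each (adjusted p = 0.0420 for both). They lost their calls under 14 and 16 of 21 settings.

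Most gene lists showed no gene past the threshold. In 30 of the 35 gene lists, 0 members passed in limma in either direction, against 0.19% of all genes tested. With so low a share over all genes, 0 calls in a list of this size do not set it apart. Those 30 cover functions of hepatocytes and also markers of other cells, many of which were close to background. Those lists held 631 tested genes, of which 56 (8.87%) had an unadjusted p under 0.05, against 9.8% of all genes tested. Lists with a call were left out of that count, which favours a low share. By list the share ran from 0% to 25%, the highest being that of 8 MHC class II genes. It was 21.1% for 38 genes of complement, coagulation and carrier proteins and 0% for 20 cholesterol synthesis genes. The list medians lay between -0.14 and 0.15. The lowest was that of 35 cell cycle genes (median -0.14), of which 6 were above 0. Mki67, the proliferation marker, stood at -0.40 ± 0.16 (adjusted p = 0.374), from 5.53 at 5 weeks to 5.13 at 11 weeks, both below the median of all values. The highest was that of 25 genes of fatty acid oxidation (median 0.15), where Ppara, the transcription factor of that pathway, stood at 0.19 ± 0.18 (adjusted p = 0.779). Lipid synthesis gave medians of 0.12 for 21 lipogenic genes, with Fasn at 0.14 ± 0.28, and -0.07 for 20 cholesterol synthesis genes, with Hmgcs1 at 0.09 ± 0.27.

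Growth signals, detoxification and nitrogen handling gave no call either. The 17 genes of the growth hormone and IGF axis had a median of 0.12, and Igf1, the main growth factor the liver secretes, stood at -0.02 ± 0.11 (adjusted p = 0.978). Of those 17 genes, 4 had an unadjusted p under 0.05 (23.5%, against 9.8% of all genes tested). In the lists that follow this share ran from 3.7% for the P450s to 9.38% for the conjugating enzymes. The 27 drug-metabolising P450s had a median of 0.03, with Cyp1a2 at -0.08 ± 0.16, and the 32 conjugating enzymes a median of 0.08, with Gsta3 at 0.05 ± 0.10. The 32 genes of the urea cycle and amino acid breakdown had a median of 0.11, with Cps1 at -0.01 ± 0.10, and the 22 genes of glucose handling one of 0.07, with Pck1 at 0.15 ± 0.25.

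Immune and vascular markers were likewise without a call. The median was 0.11 for 15 resident Kupffer cell genes, with Clec4f at 0.14 ± 0.13, and 0.05 for 26 macrophage genes, with Cd68 at 0.04 ± 0.12. It was 0.10 for 23 genes of sinusoidal endothelium, with Pecam1 at 0.10 ± 0.09, 0.04 for 25 interferon response genes, with Ifit1 at 0.17 ± 0.26, and 0.13 for 8 genes of MHC class II presentation, with H2-Aa at 0.35 ± 0.17. Some of these small medians changed sign under quantile normalization, among them the P450s (0.03 to -0.07) and conjugating enzymes (0.08 to -0.01). An unadjusted p under 0.05 was reached by 4 of 23 endothelial genes (17.4%) and 2 of 8 MHC class II genes (25%). It was reached by 2 of 15 Kupffer cell, 3 of 26 macrophage and 0 of 25 interferon response genes, against 9.8% of all genes tested.

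The ages in between gave the course of the change. Between 5 and 7 weeks 8 genes passed (0.0633%), 4 in each direction (0.0317%), between 7 and 9 weeks 818 (6.47%), 456 higher (3.61%) and 362 lower (2.86%), and between 9 and 11 weeks 1 (0.00791%), Nox4. Sult3a1, Npr2, Sucnr1, Sparc, Col1a2 and Grb10 were among the 8 of the first step, with Sult3a1 rising by 1.91 (adjusted p = 2.27e-05) and Grb10 falling by 0.58 (adjusted p = 0.00361). For all 24 genes the 7-week mean lay between the 5-week and 11-week means, and for 14 of them it was nearer the 11-week mean. At 9 weeks all 24 were nearer the 11-week mean. These steps share arrays with the comparison of 5 and 11 weeks. The 24 genes were chosen for the gap between these ends, which favours means in between. The same counts were not made over all genes tested.

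The courses of single genes differed. Sult3a1 stood at 2.88 at 3 weeks, 6.14 at 5, 8.05 at 7, 8.30 at 9 and 8.84 at 11 weeks, so its level was near the bottom of the array's range at weaning and climbed to 7 weeks. The Nox4 means were 4.45, 4.96, 5.26 and 5.99 from 5 to 11 weeks, all but the last below the median of all values. Of its steps only that from 9 to 11 weeks passed (adjusted p = 0.0294, limma). Those from 5 to 7 and from 7 to 9 weeks had adjusted p of 0.209 and 0.176. Sparc stood at 10.13, 9.58, 9.19 and 9.23, and Col3a1 at 8.36, 7.91, 7.57 and 7.55, so both had nearly equal means at 9 and 11 weeks. Grb10 was lower at 7 weeks (6.15) than at 9 (6.33). The step from 3 to 5 weeks, which shares the 5-week arrays, gave 828 calls (6.55%), 356 higher (2.82%) and 472 lower (3.73%). In it Lpl stood at -2.23, Col3a1 at -1.03, Grb10 at -0.85 and Sparc at -0.82, while Nox4 stood at 0.22 (adjusted p = 0.414).

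**Figure D3:**
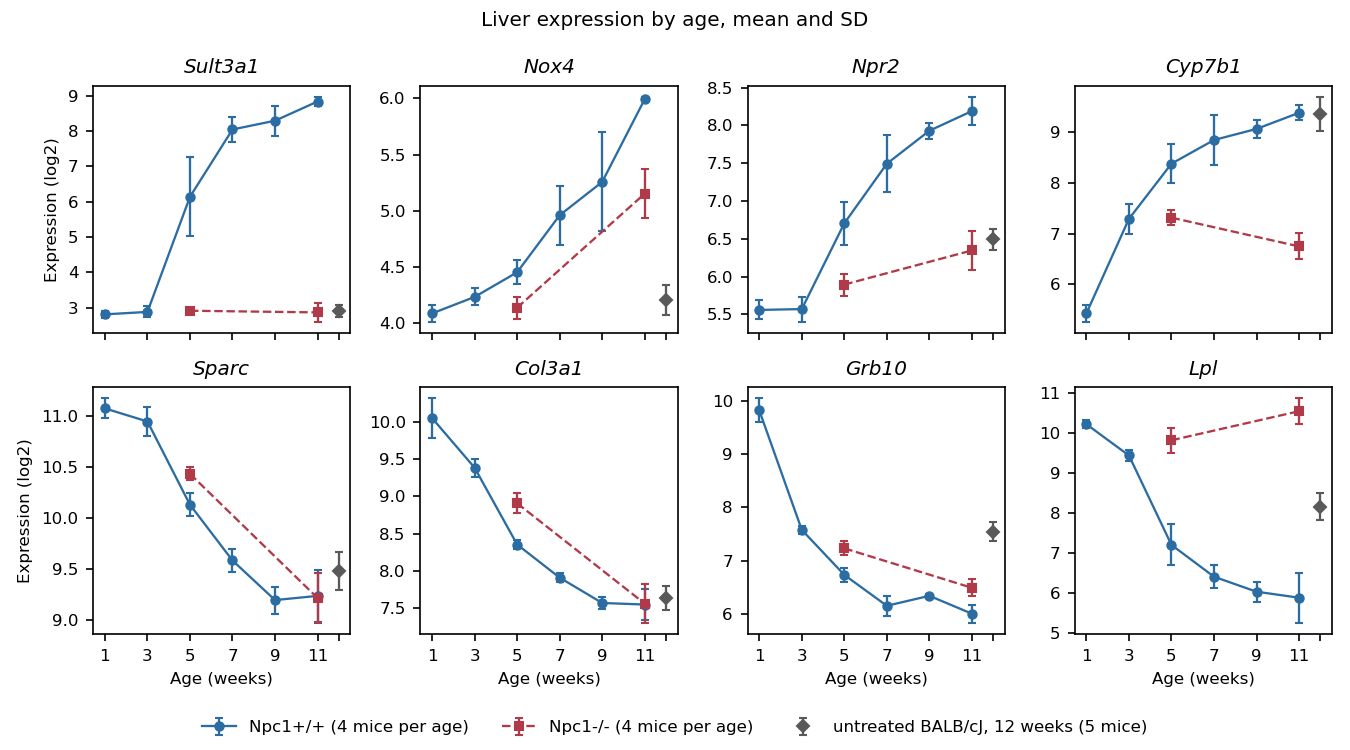
Mean log2 expression (vertical axis) against age in weeks for 8 of the genes that passed, in Npc1+/+ mice (blue line), Npc1-/- mice at 5 and 11 weeks (red dashed line) and untreated BALB/cJ mice at 12 weeks (grey diamond), with SD bars over 4, 4 and 5 mice. Sult3a1 climbs from 2.88 at 3 weeks to 8.84 at 11 weeks in Npc1+/+ mice.

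The livers of 7 and 9 weeks share no array with those of 5 and 11 weeks. Between them 21 of the 24 genes had the sign of their change from 5 to 11 weeks, against 7313 of 12638 of all genes tested (57.9%). By direction, 12 of 13 genes that rose and 9 of 11 that fell did so. Past the threshold there were 3, Sparc at -0.39 (adjusted p = 0.0179), Col4a2 at -0.38 (0.0137) and Col4a1 at -0.34 (0.0141). Of 23 tested genes in the clock list 4 passed in this step, against 6.47% of all genes tested, with Hlf, Noct and Usp2 higher at 9 weeks. The other, Leo1, was lower, but it is a transcription elongation gene and no clock gene, although the list holds it. Arntl and Dbp did not pass, at -1.05 ± 0.47 (adjusted p = 0.168) and 1.12 ± 0.66 (adjusted p = 0.314). Arntl read 5.43, 7.59, 7.07 and 6.47 at 7 weeks and 5.46, 6.18, 5.24 and 5.47 at 9 weeks, and Dbp 9.45, 6.43, 8.40 and 9.08 at 7 weeks. Mice 2 and 3 at 7 weeks were the highest in Arntl and the lowest in Dbp of their group, and mouse 3 also had a skeletal muscle list mean of 7.00 against 5.78 to 6.19 in the other 15 livers. Without mice 2 and 3 the 818 calls became 162. The part of sampling time in this step was not tested.

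**Figure D4:**
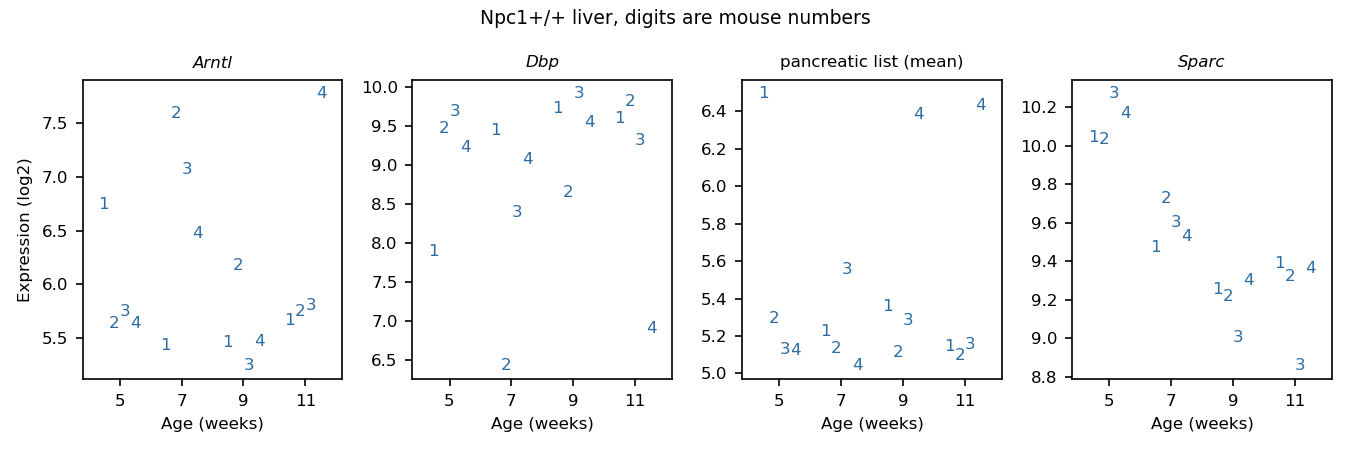
Log2 levels (vertical axes) of the clock genes Arntl and Dbp, the mean of 11 pancreatic acinar genes and Sparc in each Npc1+/+ liver at 5, 7, 9 and 11 weeks, where each digit is the number of a mouse within its age group. Mouse 1 at 5 weeks and mouse 4 at 11 weeks are high in Arntl and in the pancreatic genes and low in Dbp, while in Sparc they lie with their groups.

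A straight line through the 4 ages gave 127 genes (1%), 86 rising and 41 falling, and all 24 were among them. It uses the 5- and 11-week arrays again. Under quantile normalization it gave 63 genes, 36.5% of them rising in place of 67.7%, and with arrays centred on their medians 196, 82.1% of them rising. Genes added from the lists were Igfbp2, an IGF-binding protein, at 0.12 ± 0.03 log2 units a week (adjusted p = 0.0306), Ugt3a1, a sugar-conjugating enzyme, at 0.14 ± 0.03 (0.0180) and the fetal RNA-binding protein gene Igf2bp3, below the median of all values at both ends, at -0.09 ± 0.02 (0.0480). Outside the lists Eln, which encodes elastin, stood at -0.08 ± 0.02 (0.0187), Col6a6 at -0.08 ± 0.02 (0.00793) and Fstl1, a secreted glycoprotein, at -0.09 ± 0.02 (0.0130). The last 3 were picked after their values were seen. A test for any variation over the 4 ages (moderated F test) gave 364 genes (2.88%).

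Npc1-/- mice of the same crosses share no array with the wild-type comparison. In them 3202 genes passed between 5 and 11 weeks (25.3%). Of the 11 that fell in Npc1+/+ mice 10 were negative in Npc1-/- mice, and of the 13 that rose 6 were positive, against 6363 of 12638 genes tested with the same sign in both. The 2 changes differed for 2030 genes over all tested (16.1%), 1181 with the higher change in Npc1+/+ liver (9.34%) and 849 with the lower (6.72%). They differed for 13 of the 24 (54.2%), which were 10 of the 13 that rose and 3 of the 11 that fell. These genes were chosen for their change in Npc1+/+ liver, which is part of that difference, so its share is a description.

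For Grb10 and 5 of the 6 matrix genes the difference between genotypes did not pass. Grb10 stood at -0.73 in Npc1+/+ and -0.74 in Npc1-/- mice, a difference of 0.01 ± 0.14 (adjusted p = 0.973). Col4a1 stood at -0.38 in both, and Col1a2 at -0.73 and -0.82, a difference of 0.09 ± 0.14 (adjusted p = 0.760, limma). Col4a2 stood at -0.43 and -0.38, a difference of -0.05 ± 0.13 (0.864). Sparc and Col1a1 lay further apart. Sparc stood at -0.90 and -1.22, a difference of 0.32 ± 0.14 (0.129), and Col1a1 at -0.77 and -1.07, a difference of 0.29 ± 0.19 (0.352). Col3a1 fell more in Npc1-/- liver, from values of 9.03, 8.94, 8.95 and 8.72 to 7.85, 7.64, 7.54 and 7.23. Its change there was -1.35 against -0.81, and the difference of 0.54 ± 0.17 passed (adjusted p = 0.0196). At 11 weeks the 2 genotypes overlapped in Col3a1. Of the 25 list genes 10 fell in Npc1-/- mice, against 12.5% of all genes tested, and 3 rose (Vim, Dcn and Postn), a share close to the 12.9% of all genes tested.

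Lpl moved in opposite directions. In Npc1-/- liver it read 9.52, 9.92, 10.23 and 9.64 at 5 weeks and 10.78, 10.56, 10.76 and 10.09 at 11 weeks, a rise of 0.73 (adjusted p = 0.00662). Even the lowest Npc1-/- mouse was above every Npc1+/+ mouse at either age. The difference of the changes was -2.04 ± 0.29 (adjusted p = 8.92e-07).

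Sult3a1 stayed at 2.73 to 3.26 in all 8 Npc1-/- livers, and its changes differed by 2.75 ± 0.35 (adjusted p = 1.14e-07). Cyp7b1 fell by 0.57 in Npc1-/- liver (adjusted p = 0.0179), from 7.14 to 7.49 at 5 weeks to 6.38 to 6.97 at 11 weeks, and the changes differed by 1.58 ± 0.26 (adjusted p = 1.29e-05). Npr2 rose in both, by 1.48 and 0.45, with a difference of 1.03 ± 0.23 (adjusted p = 8.30e-04). Nox4 also passed as higher at 11 weeks in Npc1-/- liver (adjusted p = 8.42e-08, limma), and the difference of its changes did not pass (adjusted p = 0.0533). Its means there, 4.14 and 5.15, were both below the median of all values, so no size is read from that change. Sult3a1, Gm21286, Sucnr1 and Adamdec1 were also below that level in Npc1-/- liver at both ages, which limits what their differences of change can show. The rule for naming genes also picked 6 genes outside the 24 by their fitted difference of change. Ces3a, Paqr9 and Mup3 stood at 0.05, 0.01 and 0.46 in Npc1+/+ and at -4.39, -3.81 and -3.34 in Npc1-/- liver. Sult1e1, Tm4sf19 and Ctsk were below the median of all values in Npc1+/+ liver at both ages, so no change is read there. In Npc1-/- liver they averaged 3.93, 5.40 and 5.63 at 5 weeks and 8.24, 8.72 and 8.44 at 11 weeks. For Sult1e1 and Tm4sf19 that rise may be understated. None of the 6 passed in Npc1+/+ liver.

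**Figure D5:**
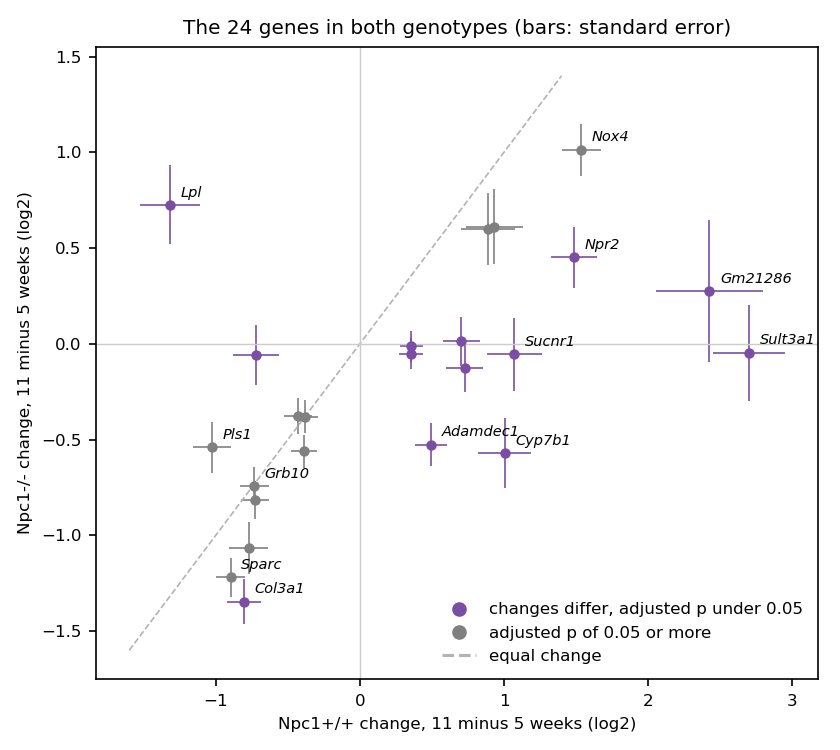
Change from 5 to 11 weeks (log2) in Npc1+/+ (horizontal axis) and Npc1-/- liver (vertical axis) of the 24 genes that passed in Npc1+/+ mice, 4 mice per genotype and age, with standard errors. Purple points are the 13 genes whose changes differ between genotypes at an adjusted p under 0.05, and the dashed line marks equal change.

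The untreated BALB/cJ females of 12 weeks share no array with either group. They were nearer to the 11-week than to the 5-week mean in 15 of the 24 genes, a count not made over all genes tested. The collagens and Sparc were so, with means of 7.55 for Col1a1, 7.66 for Col1a2, 7.63 for Col3a1 and 9.48 for Sparc. Cyp7b1 averaged 9.36, beside 9.39 at 11 weeks. Sult3a1 read 2.80, 3.06, 2.80, 3.10 and 2.74 in these females, near its 3-week mean of 2.88 and far below all 8 wild-type mice. Gm21286 ran from 2.97 to 3.50 and Nox4 from 4.08 to 4.41, which are both below the 11-week mice too. Grb10, at 7.29 to 7.79, and Lpl, at 7.77 to 8.64, were above every 11-week mouse, and Sucnr1, at 7.15 to 8.03, was above both ages. Among sex-biased genes picked after their values were seen, the male-biased Slco1a1 averaged 3.81 in the 12-week females against 9.64 at 11 weeks, and Elovl3 3.59 against 7.03. Hsd3b5 averaged 8.02 against 6.65, and the female-biased Cyp3a16 9.97 against 5.24. Cyp2b9 averaged 12.20 against 12.15. Supplier, age, sample preservation and substrain cannot be told apart in these values, and no test was made of them.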

How the data were processed

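Liver RNA was labelled as biotinylated cRNA and hybridised to 1 array per mouse, per the labels. The authors deposited log2 expression values per probe set. The submitters' processing notes list RMA and Partek 6.5 without giving a role or order, so how arrays were scaled is not given in the sources used here. Of 35556 probe sets, 21789 carried 1 gene symbol, 1621 several and 12146 none; the probe set with the highest mean stood for each of 19938 genes. A gene was tested when 4 or more of the 48 age-series arrays exceeded 5.54, the median over the whole table (12638 genes). limma 3.58.1 in R 4.3.3 fitted 1 mean per group over those 48 arrays, and Benjamini-Hochberg adjustment ran over all genes tested. Errors after ± are standard errors of the fit.

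Genes were named by rule: the 12 highest and 12 lowest that passed with non-overlapping groups (clone names left out), up to 3 that passed and the first measured member per list, and the 3 largest genotype differences each way. The members and lists were chosen with earlier results of these data known. On simulated data of 12638 genes for the comparison of 5 and 11 weeks, 100% of changes of 1 log2 unit and 68% of changes of 0.5 were recovered. The simulation changed 200 genes with independent noise, and that many changes ease the adjusted threshold. In the deposited data 19 genes changed by at least 1 log2 unit and 8 of them passed. The recovered shares are thus no measure of what was missed here. Alternatives were filters, scalings, arrays entering the fit, probe set choice, weights, thresholds, a replicate block and leaving out mice. Promoter windows came from RefSeq (GRCm38.p6). The number of arrays limits the precision.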

Additional observations from a re-analysis of the deposited data

Results flagged for a closer look

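In 16 of 126 gene-by-age groups of 4 mice (12.7%), 1 mouse lay far from the other 3, its gap to the nearest exceeding Dixon's critical share of the group's range; chance gives about 1 in 20. At 5 weeks that mouse was mouse 1 for Lpl (0.972 of the range), Cyp1a2 (0.959), Cpb1 (0.957), Hmgcs1 (0.907), Arntl (0.901), Ces3a (0.883) and Cyp7a1 (0.830), and mouse 3 for Col1a1 (0.850). At 11 weeks it was mouse 4 for Arntl (0.936), Hspa5 (0.891) and Cpb1 (0.884), mouse 1 for Tm4sf19 (0.961) and Col1a1 (0.936), and mouse 3 for Col1a2 (0.921), Sparc (0.872) and Ifit1 (0.861). What set these mice apart was not tested.

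The change from 5 to 11 weeks differed between Npc1+/+ and Npc1-/- liver, by limma's test of the difference itself, for 27 named genes. As Npc1+/+ change minus Npc1-/- change in log2 units, the genes that rose in Npc1+/+ liver stood at 2.75 for Sult3a1, 2.15 for Gm21286, 1.58 for Cyp7b1, 1.13 for Sucnr1, 1.03 for Npr2, 1.02 for Adamdec1, 0.852 for Ctsc, 0.692 for Pgap1, 0.406 for Syap1 and 0.370 for Fam8a1. Those that fell stood at -2.04 for Lpl, -0.660 for Lratd2 and 0.541 for Col3a1. Genes without a call in Npc1+/+ liver stood at 4.44 for Ces3a, 3.82 for Paqr9, 3.79 for Mup3, 2.43 for Fasn, 1.94 for Hmgcs1, 1.63 for Alas2, 1.18 for Clec4f, 0.926 for Mki67, 0.825 for Cyp2b9 and 0.439 for Igf1, and, on the other side, at -4.24 for Sult1e1, -3.27 for Tm4sf19, -3.10 for Ctsk and -1.61 for Cd68. Sult1e1, Tm4sf19, Ctsk and Mki67 in Npc1+/+ liver, and Sult3a1, Gm21286, Sucnr1 and Adamdec1 in Npc1-/- liver, averaged below the median of all values at both ages, so the sizes of their differences are fitted values only.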

How the results depend on the processing

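Between 5 and 11 weeks the 24 calls became 14 in a fit of the 8 arrays alone, 56 with array weights, 15 at an adjusted p of 0.01 and 8 with a 2-fold minimum, and 14 to 40 when single mice were left out. Between 7 and 9 weeks the 818 calls became 162 at 0.01, and 162 without mice 2 and 3 at 7 weeks, a choice made after seeing the data. The line through 4 ages gave 63 calls under quantile normalization, 196 with centred arrays and 34 at 0.01 in place of 127. The difference between genotypes gave 1223 at 0.01 in place of 2030. The share of higher calls between 7 and 9 weeks was 55.7%, but 46.6% under quantile normalization and 76.8% with centred arrays, and for the difference between genotypes 58.2%, 46.7% and 64.6%. Replicate numbers did not pair the mice (correlations from -0.23 to 0.04), and with the replicate block 19 genes passed between 5 and 11 weeks, all among the 24. Of the values of named genes between 5 and 11 weeks, 1151 kept their direction and call, 119 lost the call and 48, of 19 genes, took the other sign. None of those 19 genes passed, and none of the 48 values did (lowest adjusted p = 0.852, limma). Under quantile normalization Hmgcs1 stood at -0.0068, Cd68 at -0.0040, Gclc at -0.031, Gsta3 at -0.023, Alb at -0.027, Ces3a at -0.017 and Paqr9 at -0.082. With centred arrays Igf1 stood at 0.0075 and Cps1 at 0.015, and with array weights Plin1 stood at -0.017, Cpb1 at 0.040 and Alb at -0.024. Without mouse 1 at 5 weeks and mouse 4 at 11 weeks Hmgcs1 stood at -0.30, Ces3a at -0.035 and Paqr9 at -0.13. With single mice left out the values ran from -0.079 to 0.16 for Afp, -0.31 to 0.010 for Alas2, -0.050 to 0.074 for Alb, -0.20 to 0.57 for Arntl, -0.12 to 0.037 for Axin2, -0.061 to 0.010 for Cd3e and -0.022 to 0.11 for Cd68. They ran from -0.028 to 0.085 for Ces3a, -0.62 to 0.51 for Cpb1, -0.045 to 0.028 for Cps1, -0.14 to 0.0049 for Fos, -0.062 to 0.17 for Gclc, -0.15 to 0.34 for Hmgcs1 and -0.051 to 0.33 for Hspa5. For Igf1 they ran from -0.090 to 0.023, for Paqr9 from -0.11 to 0.20, for Plin1 from -0.0079 to 0.086 and for Tm4sf19 from -0.046 to 0.086. The cause was not tested, apart from stricter thresholds and fewer arrays.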
